A study of Mus musculus with 6 samples.

Results

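The genes described here encode the PGC-1 coactivators (Ppargc1a, Ppargc1b), their muscle partner Perm1, the PPAR receptors Ppara and Ppard, the estrogen-related receptors Esrra, Esrrb and Esrrg, and the mitochondrial regulators Nrf1 and Tfam. These 10 genes were chosen by name from 21829 protein-coding genes, and every one of them was found in the annotation. ChIP-seq was performed with an antibody against Maf, a bZIP transcription factor, in 2 samples and in another 2 against H3K27ac, a histone acetylation that marks active regulatory DNA. The chromatin came from nuclei of the gastrocnemius and quadriceps of wild-type mice aged 2 months, with no treatment and no altered allele named. The labels describe both samples of each target as biological replicates. Per the paper's methods, sheared chromatin was divided between the Maf and H3K27ac antibodies, so the samples of the 2 targets are not separate material. The peaks were called sample by sample, which gave 4 lists, and 2 input samples were not used here. For each gene, peaks were taken from the gene body and from 50 kb to either side of each of its protein-coding transcript starts, which is called its window below.

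The Maf list of replicate 1 held 74 peaks and that of replicate 2 held 5467, while the H3K27ac lists held 44887 and 44987 regions. Only positions are given, without read numbers, so sequencing depth is unknown and no test was made. Overlapping intervals of the replicates were joined, which gave 5486 Maf peaks and 52540 H3K27ac regions with a median length of 1446 bp. The nuclei were purified from muscle by a protocol that the paper cites, and the lists do not tell which nuclei carried a region. As a check of the tissue, 6 of 6 myofiber markers (Acta1, Ckm, Myh4, Myh1, Atp2a1, Tnnt3) carried H3K27ac within 1 kb of a start, in regions of 7717 to 47650 bp. Of 6 markers of endothelial, mesenchymal, satellite, immune and fat cells (Pecam1, Cdh5, Pdgfra, Pax7, Ptprc, Adipoq), 5 carried it too, in regions of up to 9878 bp, and Adipoq did not. The part of these other cells in the regions described here was not tested.

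PGC-1 proteins do not bind DNA themselves and act on genes through transcription factors, among them the PPAR and estrogen-related receptors. PPARs pair with retinoid X receptors and switch on genes of fatty acid use, while estrogen-related receptors act on genes of the Krebs cycle and oxidative phosphorylation. NRF1, the nuclear respiratory factor, activates nuclear genes for the respiratory chain and Tfam, whose product packages mitochondrial DNA and acts in its transcription. Together these genes are known for setting the mitochondrial content of muscle fibers, which is high in slow and low in fast glycolytic fibers.

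The DNA under the Maf peaks, in which motifs were searched, is shown for 5 of the 6 genes that had one. The peaks of Ppargc1b are described by their values and motif matches only. The peak at the promoter of a gene was taken where there was one, and otherwise the peak that stood highest in the replicate 2 list. The second peak of Ppard was added after its values were seen, because it holds TGCTGAC. All are on the plus strand of GRCm38. Capitals mark matches on either strand to TGCTGA and TGCTGAC (parts of the Maf recognition element), TGANTCA (AP-1), CAGCTG (an E-box) and the Mef2 motif. Annotated untranslated bases were left out, so the promoter peak of Ppard and the peak of Esrra are printed in part.
Ppard, intron beside the first exon, chr17:28232865-28233020: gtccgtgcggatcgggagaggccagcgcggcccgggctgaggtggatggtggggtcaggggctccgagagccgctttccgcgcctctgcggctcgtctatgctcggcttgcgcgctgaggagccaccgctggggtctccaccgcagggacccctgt
Ppard, intron, chr17:28236704-28236984: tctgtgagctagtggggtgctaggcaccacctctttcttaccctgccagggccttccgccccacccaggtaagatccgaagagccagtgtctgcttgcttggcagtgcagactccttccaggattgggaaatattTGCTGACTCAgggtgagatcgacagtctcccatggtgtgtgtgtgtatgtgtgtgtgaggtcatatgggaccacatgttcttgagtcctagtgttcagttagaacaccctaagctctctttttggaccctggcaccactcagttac
Esrra, downstream, at the start of Prdx5, chr19:6909360-6909617: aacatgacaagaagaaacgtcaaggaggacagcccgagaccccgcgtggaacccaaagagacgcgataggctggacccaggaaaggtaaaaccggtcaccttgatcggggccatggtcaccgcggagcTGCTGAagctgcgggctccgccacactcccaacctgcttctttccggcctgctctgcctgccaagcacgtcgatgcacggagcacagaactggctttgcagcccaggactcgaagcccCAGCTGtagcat
Esrrb, intron, chr12:86498748-86499028: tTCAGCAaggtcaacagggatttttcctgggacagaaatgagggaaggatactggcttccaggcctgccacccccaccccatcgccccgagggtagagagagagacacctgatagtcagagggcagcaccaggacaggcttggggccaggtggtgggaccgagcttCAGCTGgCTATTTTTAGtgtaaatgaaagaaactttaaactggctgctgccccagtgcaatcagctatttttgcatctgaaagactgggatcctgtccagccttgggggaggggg
Esrrg, intron, chr1:187671687-187671967: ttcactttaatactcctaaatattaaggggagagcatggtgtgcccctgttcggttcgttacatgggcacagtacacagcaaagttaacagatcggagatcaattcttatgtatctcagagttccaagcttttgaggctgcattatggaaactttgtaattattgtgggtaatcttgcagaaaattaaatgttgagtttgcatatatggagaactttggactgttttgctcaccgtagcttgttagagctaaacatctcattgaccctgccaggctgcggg
Tfam, upstream, in Ube2d1, chr10:71284350-71284630: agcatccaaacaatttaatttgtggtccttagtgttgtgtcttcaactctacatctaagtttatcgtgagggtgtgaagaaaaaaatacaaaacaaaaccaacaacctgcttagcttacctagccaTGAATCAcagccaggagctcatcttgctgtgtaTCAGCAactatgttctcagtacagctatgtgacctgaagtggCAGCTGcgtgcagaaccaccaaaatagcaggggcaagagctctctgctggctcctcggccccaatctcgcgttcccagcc
In the second Ppard peak the TGCTGAC and TGANTCA matches overlap and form 1 run. The Ppard promoter peak and the Esrrg peak hold none of the motifs searched.

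Promoter sequence is shown for the 4 genes whose RefSeq promoter (250 bases before to 50 after the start, GRCm38.p6) holds TGCTGA, the NRF1 site or the site of GABP, another regulator of mitochondrial genes. Each is printed along its gene, and capitals mark TGCTGA in Ppargc1a and Perm1, GCGCATGCG (NRF1, matched on both strands) in Ppara and CCGGAAGT (GABP) in Tfam. Bases annotated as untranslated were left out for Ppargc1a and Ppara. The matches of Perm1 and Tfam lie in bases that are annotated as untranslated. Only 30 bases each around TGCTGA in Perm1 and around CCGGAAGT in Tfam are printed. The TGCTGA match of Tfam, at -178 bp from the start, is not shown.
Ppargc1a, minus strand, chr5:51567727-51567975: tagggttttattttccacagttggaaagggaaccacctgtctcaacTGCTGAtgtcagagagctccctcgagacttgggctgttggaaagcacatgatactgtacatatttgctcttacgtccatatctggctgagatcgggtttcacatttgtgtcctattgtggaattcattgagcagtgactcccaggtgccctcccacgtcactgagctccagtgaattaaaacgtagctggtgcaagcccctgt
Ppara, plus strand, chr15:85735647-85735775: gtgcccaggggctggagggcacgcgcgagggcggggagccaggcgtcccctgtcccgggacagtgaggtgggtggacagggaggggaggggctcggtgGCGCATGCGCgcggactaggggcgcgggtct
Perm1, plus strand, chr4:156215947-156215976: catggccctagctggcTGCTGAgaaccagg
Tfam, minus strand, chr10:71238073-71238102: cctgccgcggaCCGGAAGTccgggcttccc
None of these 4 promoters had a Maf peak, and all 4 lay in H3K27ac regions of both replicates.

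A Maf peak was present in the window of 6 of the 10 genes, namely Ppargc1b, Ppard, Esrra, Esrrb, Esrrg and Tfam, against 31.2% of all protein-coding genes. Ppargc1a, Ppara, Nrf1 and Perm1 had none. The peaks numbered 11, and every one of them was called in replicate 2 and none in replicate 1. So no Maf peak at these genes was seen in both replicates. As replicate 1 held 74 peaks in all, at most 74 of the 5486 joined Maf peaks could be in both. Of the 11 peaks, 8 lay in introns of the gene and 3 outside it. The nearest transcript start was that of the gene itself for 8 peaks, and that of Pde6a, Prdx5 and Ube2d1 for the other 3.

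Windows differ in length, and longer ones can hold more peaks. The windows of these genes had a median of 146 kb, against 100 kb for all genes, because their gene bodies were longer, with a median of 85.4 kb against 17.4 kb. Of all genes with a window under 110 kb, 28.1% had a Maf peak, and of the 3 regulator genes of this class Esrra and Tfam had one while Perm1 did not. Between 110 and 170 kb the share of all genes was 35.6%, and Ppargc1b and Ppard had a peak while Ppargc1a, Ppara and Nrf1 did not. At 170 kb and more it was 46.1%, and both Esrrb and Esrrg had peaks. Summed over windows, the regulator genes held 0.576 Maf peaks per 100 kb and all genes 0.36.

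**Figure D1:**
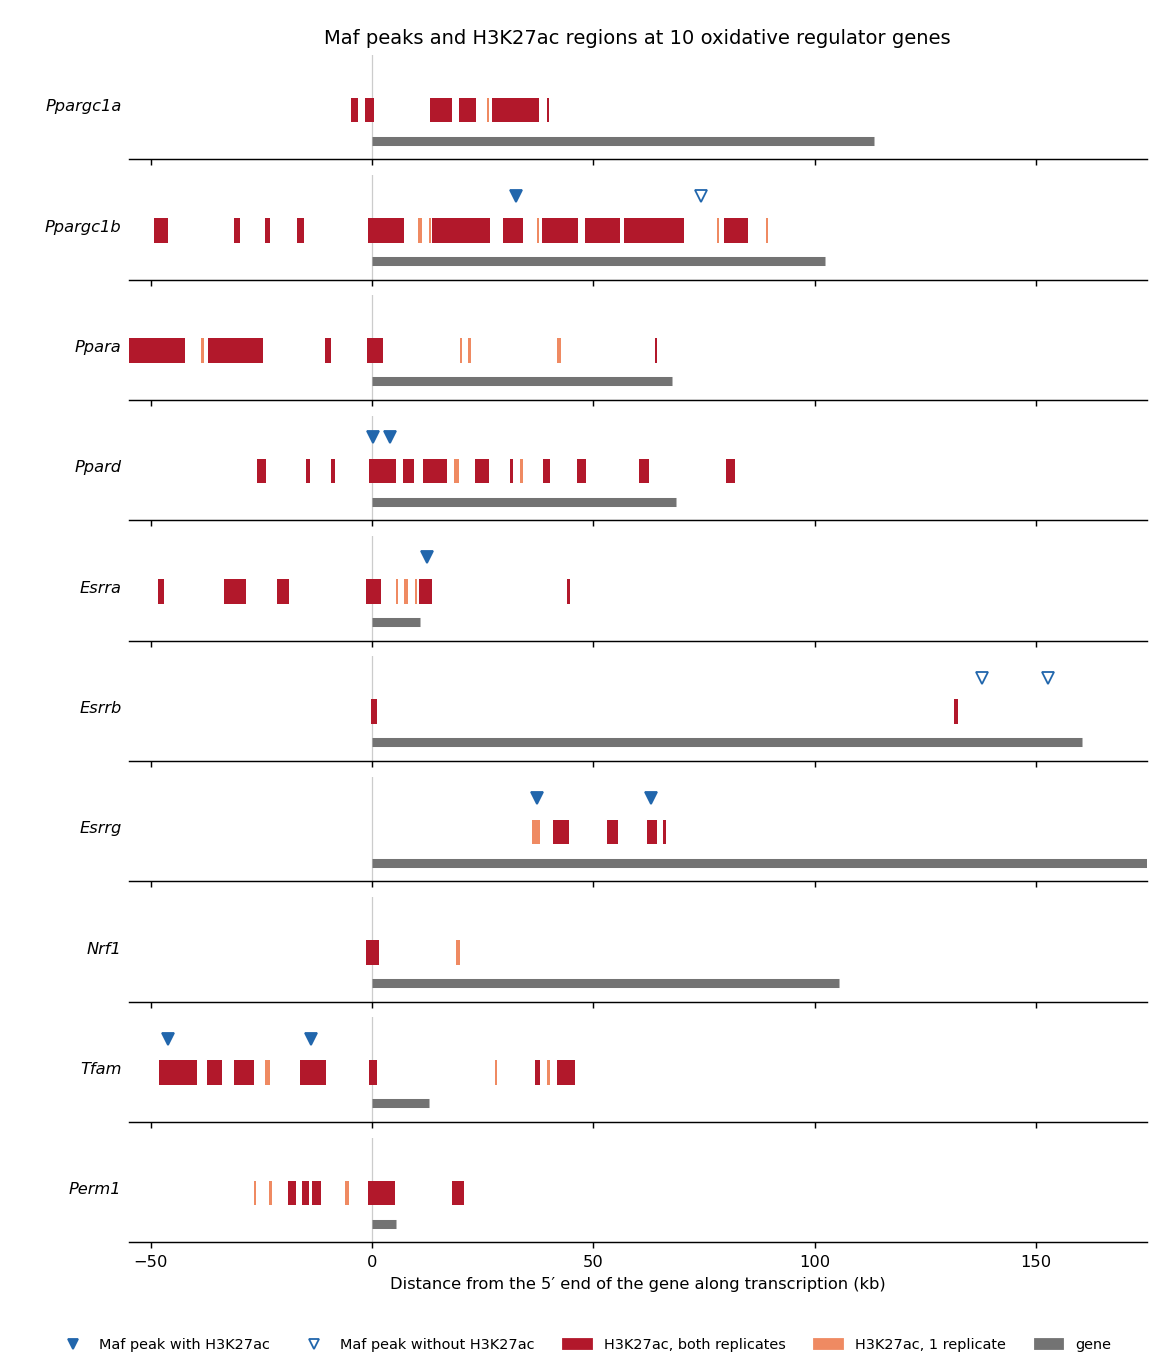
Maf peaks (triangles) and H3K27ac regions (bars) at the 10 genes, by distance in kb from the 5′ end of the gene along transcription, with the gene body in grey. The axis is cut short, so the far part of Esrrg with 5 of its regions is not drawn. Most of the longest Ppara region, upstream of the gene, is cut off as well. Filled triangles mark the 8 Maf peaks in an H3K27ac region and open ones the 3 outside, and Ppargc1b is the gene with the most regions.

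H3K27ac was present within 1 kb of a transcript start in 10 of the 10 genes, against 58.7% of all protein-coding genes. In 9 of them a region at a start was called in both replicates, against 12148 of all 21829 genes. In Esrrg it was called in replicate 1 alone. The 10 windows held 87 joined regions, of which 52 had their centre inside the gene, 27 upstream and 8 downstream. Both replicates had an interval in 63 of these, or 72.4%, against 67.0% of all joined regions. The 24 regions of 1 list were short, with a median of 673 bp and a maximum of 1633 bp, and those of both lists had a median of 2350 bp. Only 12 regions touched the 1 kb around a start, and the other 75 lay farther away. Counts of these places over all genes are not given here.

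The share of the window covered by H3K27ac put the genes in an order that was nearly the same in both replicates. Ppargc1b came first, with 40.8% covered in replicate 1 and 44.0% in replicate 2. Tfam followed with 27.3% and 29.7%, and Ppara with 21.7% and 20.9%. Ppard had 19.8% in both. These 4 genes, whose values did not overlap between neighbors in the order, stood at percentile 89.0 or above among all genes when the lists were joined.

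Esrra, Perm1 and Ppargc1a formed a middle group, with 14.7%, 15.3% and 13.2% covered in replicate 1 and 16.8%, 14.5% and 13.7% in replicate 2, and Esrra and Perm1 changed places between the replicates. Esrrg, Nrf1 and Esrrb were covered least, and the values of Esrrg and Nrf1 overlapped. Their values were 2.37%, 2.11% and 1.1% in replicate 1, and 2.04%, 1.71% and 0.928% in replicate 2. The median of the 10 genes was 15.0% in replicate 1 and 15.7% in replicate 2, against 4.54% and 4.57% over all genes. Thus 7 genes lay above the median of all genes and 3 below it in either list. These are shares of length, and they do not measure how strong the mark was.

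**Figure D2:**
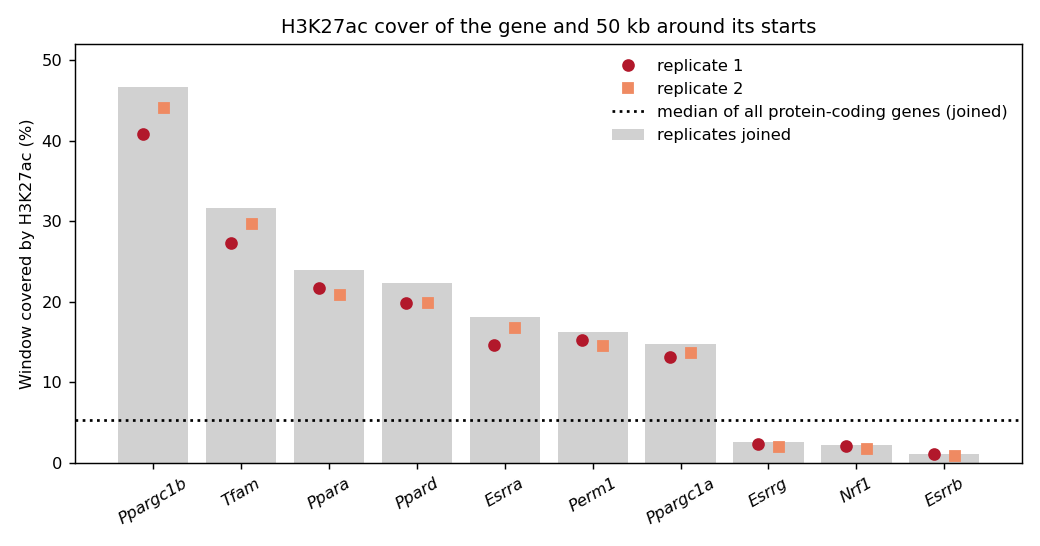
Share of each window covered by H3K27ac in percent, with replicate 1 as circles, replicate 2 as squares, the joined lists as bars and the median of all protein-coding genes (joined lists, 5.32%) as the dotted line. Ppargc1b reaches 46.6% when the lists are joined, and Esrrg, Nrf1 and Esrrb stay below the line.

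Broad regions were found at 3 of the 10 genes. Ppargc1a, Ppargc1b and Ppara had a joined region of 10 kb or more in the window, against 8.43% of all genes, and together they had 5 such regions. All lay away from the starts. Only the regions of Ppara reached 10 kb in both replicates, and the longer of them was only partly in the window. The region of Ppargc1a reached it in replicate 1 alone, with 10196 bp against 9018 bp in replicate 2. Those of Ppargc1b reached it in replicate 2 alone, with 13361 and 13060 bp against 9692 and 7508 bp.

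Of the coactivators, Ppargc1a, which is induced by exercise and cold and drives mitochondrial biogenesis, had no Maf peak. The nearest one was 1051095 bp upstream of its closest start, where the nearest gene was Sepsecs. Its window of 163 kb held 6 H3K27ac regions in replicate 1 and 8 in replicate 2. The start at the 5′ end of the gene lay in a region of 1846 bp in replicate 1 and 2028 bp in replicate 2, and the starts inside the gene in one of 4932 and 4823 bp. The longest region was intronic, with 10196 bp in replicate 1, and was split in replicate 2 into 2 intervals, the longer of 9018 bp. All 7 joined regions had a Ppargc1a start as their nearest, so no neighbor lay closer to any of them. They lay in the 5′ part of the gene and just upstream of it, as the map of the windows shows.

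Ppargc1b encodes PGC-1β, a close relative of PGC-1α. It stood at percentile 99.4 of all genes for H3K27ac cover, with 16 joined regions, of which 12 were centred inside the gene and together measured 63.8 kb. Its promoter region was 8053 bp in replicate 1 and 7922 bp in replicate 2 and also overlapped Mir378a, a microRNA gene in an intron of Ppargc1b. The longest intronic regions were 13361 and 13060 bp long in replicate 2. In replicate 1 each of these was split into 3 intervals, the longest of 9692 and 7508 bp. The long cover of the gene was therefore seen in both replicates, while the cutting into regions differed.

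Both Maf peaks of Ppargc1b were intronic. The first lay 74384 bp from the nearest Ppargc1b start at position 3291 of the 5467 in the replicate 2 list, without H3K27ac and 3423 bp from the next marked base, and the nearest start was that of Pde6a at 50993 bp. This first peak held a match to TGCTGAC that overlapped a TGANTCA match. A TGCTGA match on the other strand followed directly after the TGCTGAC match, so these matches formed a single run. The second lay 32509 bp from the promoter at position 4861, inside a region of 2848 bp in replicate 1 and 4676 bp in replicate 2, and held no motif searched. Both stood in the later part of the list.

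Perm1, a regulator induced by PGC-1 and estrogen-related receptors in striated muscle, is the shortest of the genes at 5.44 kb. A single region of 5999 bp in replicate 1 and 6150 bp in replicate 2 ran from its promoter through most of the gene. No Maf peak lay nearer than 183634 bp. Of its 8 joined regions, 2 had Perm1 as the nearest gene, and the others lay closer to Agrn, Isg15, AW011738 and Plekhn1. The cover of its window of 100 kb, 15.3% and 14.5% in the 2 replicates, thus included promoters of neighbors.

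Among the PPAR genes, Ppara, the receptor of fatty acid breakdown best known from liver, had no Maf peak in its window. The nearest one lay 51979 bp upstream, just past the limit, at position 5286 of 5467. That peak fell inside the longest H3K27ac region of all 10 genes, which spanned 41498 bp in replicate 1 and was called as 3 intervals in replicate 2, the longest of 31487 bp. The near edge of this region was 42763 bp from the first start of Ppara, over the noncoding genes Lncppara and Gm49539, and only part of it was in the window. A second long region, of 10792 and 12376 bp, covered the microRNA genes Mirlet7b and Mirlet7c-2. The promoter itself carried 3356 bp in replicate 1 and 3567 bp in replicate 2. So most of the cover around Ppara lay upstream over noncoding genes, and the regions centred inside the gene measured 6.58 kb.

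Ppard, the PPAR that prevails in skeletal muscle, was the only one of the 10 that had a Maf peak in its promoter, up to 1 kb before or after a start, against 4.93% of all genes. This peak lay 98 bp past its nearest start at position 2938, and a second one stood 4062 bp past it at position 2396. Both lay in 1 joined H3K27ac region of 5972 bp, which had 5631 bp in replicate 1 and was cut into 2 intervals in replicate 2, the longer of 3455 bp. The second is the peak shown above with overlapping TGCTGAC and TGANTCA matches, which lie at its centre. Ppard had 12 H3K27ac regions in replicate 1 and 15 in replicate 2, spread along the gene. Regions at Def6 upstream and Fance downstream were among them, and 9 of 14 joined regions had Ppard as the nearest gene.

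Of the estrogen-related receptors, Esrra encodes ERRα, which is expressed widely in oxidative tissues. Its promoter region was 3485 bp in replicate 1 and 3341 bp in replicate 2. The Maf peak in its window lay 11551 bp downstream of the start and 30 bp from the start of Prdx5, a peroxiredoxin gene, at position 2657. It was inside a region of 2844 and 2834 bp that also reached Trmt112. The neighbors lie close here, and only 2 of 9 joined regions had Esrra as the nearest gene.

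Esrrb, which encodes ERRβ and is best known from stem cells, had the lowest H3K27ac cover. It carried 2 regions in each replicate, namely one at its 5′ start of 1374 and 1176 bp and an intronic one of 944 and 777 bp. The RefSeq start at 86421644 on chromosome 12 was unmarked. Esrrb had 2 Maf peaks in introns, at positions 3547 and 3979, and neither lay in H3K27ac. The nearest marked bases were 5227 and 20108 bp away. Together with the first peak of Ppargc1b these were the only Maf peaks at the 10 genes without the mark.

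Esrrg encodes ERRγ, a receptor of highly oxidative tissue such as heart and slow muscle, and with 606 kb it was by far the longest of the genes. Its 10 joined regions all lay inside the gene, but they covered 2.37% and 2.04% of a window of 656 kb. The region at a GENCODE start was 793 bp long and called in replicate 1 alone. A longer region of 3379 bp in replicate 1 and 3401 bp in replicate 2 held 2 RefSeq starts (187651758 and 187652241 on chromosome 1) that are not among the GENCODE protein-coding starts used here, while the RefSeq start at 187609006 was unmarked. The small promoter region of Esrrg therefore depends on which annotated starts are used.

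Both Maf peaks of Esrrg lay in the same part of the gene, 37118 and 62798 bp from the nearest start. The first, at position 3324, was in an H3K27ac region of 1633 bp called in replicate 1 alone, and it held a Mef2 match. The second stood at position 1250, in a region of 2115 bp in replicate 1 and 2291 bp in replicate 2. It was the second highest Maf peak at the 10 genes.

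Nrf1 had no Maf peak, and the nearest lay 112030 bp upstream in Strip2, without H3K27ac. Its promoter region was 2583 bp in replicate 1 and 2874 bp in replicate 2. One further region, of 967 bp in an intron, was called in replicate 1 alone. Apart from the promoter, Nrf1 with its 13 annotated starts thus carried little of the mark in a window of 168 kb.

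Tfam encodes mitochondrial transcription factor A. Its promoter region was short, with 1796 bp in replicate 1 and 1721 bp in replicate 2, and was the only region inside the gene. The window was nevertheless among the most covered, as 5 regions lay upstream and 4 downstream. The longest, of 7977 bp in replicate 1 and cut into 2 intervals in replicate 2, the longer of 6915 bp, lay over Ube2d1, a ubiquitin-conjugating enzyme gene, and held the Maf peak at position 1074, which stood highest of the 11. This peak was 46210 bp upstream of Tfam and 772 bp from a start of Ube2d1. The other Maf peak, at position 3926, lay 13730 bp upstream of Tfam in a region of 5940 and 5205 bp, and its nearest start was that of Tfam. Which gene a distal region serves cannot be told from the lists.

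**Figure D3:**
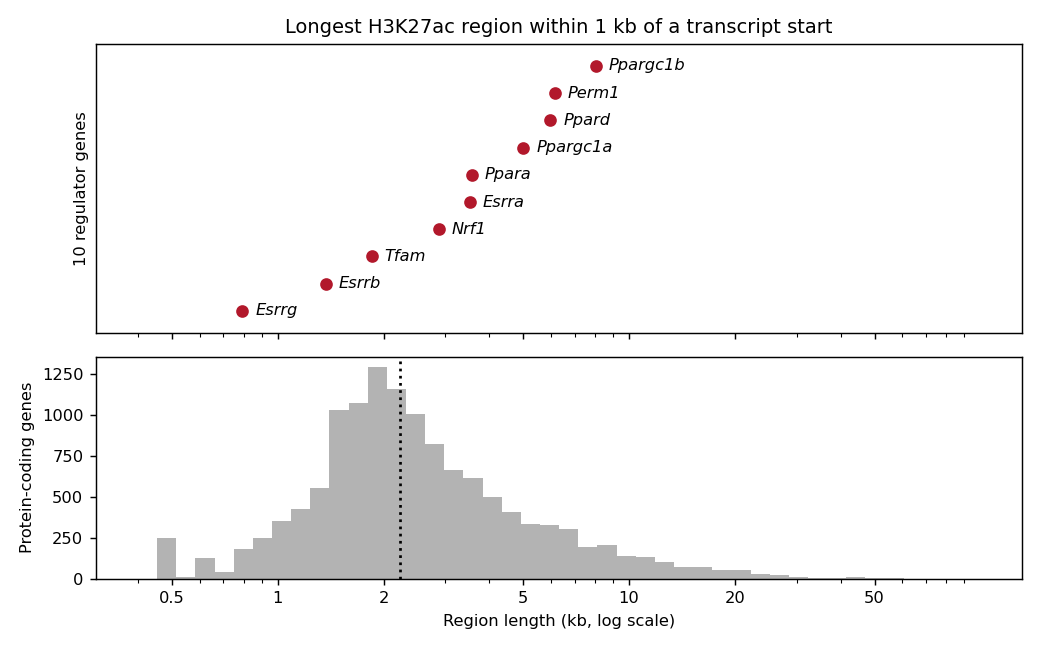
Length in kb (log scale) of the longest H3K27ac region within 1 kb of a start for the 10 genes (top) and, as a histogram, for the 12821 protein-coding genes with such a region (bottom), with their median of 2234 bp as the dotted line. Ppargc1b, Perm1 and Ppard lie to the right, and Tfam, Esrrb and Esrrg lie left of the line.

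The longest promoter region of the 10 genes had a median of 3541 bp, against 2234 bp over all 12821 genes with promoter H3K27ac. Ppargc1b at 8053 bp, Perm1 at 6150 bp, Ppard at 5972 bp and Ppargc1a at 5005 bp stood at percentiles 92.8, 88.4, 87.8 and 84.3 of those genes. The Ppargc1a region of 5005 bp lay at starts inside the gene, and the joined region at its 5′ start measured 2028 bp, below the median. Ppara, Esrra and Nrf1 were at 3567, 3515 and 2874 bp. Tfam, Esrrb and Esrrg were below the median at 1854, 1374 and 793 bp. The 3 genes of the estrogen-related receptors thus ranged from percentile 4.26 for Esrrg to percentile 73.5 for Esrra. The Esrrg value is that of a region called in replicate 1 alone, and it depends on which annotated starts are used.

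H3K27ac was present at 8 of the 11 Maf peaks, against 69.1% of all joined Maf peaks. In the other direction, 8 of the 87 H3K27ac regions held a Maf peak, against 6.87% of all joined regions. One of these is the long region upstream of Ppara, whose Maf peak lay outside the window and is not among the 11, and the region at the Ppard promoter held 2 peaks. The first count lies near its background, and so does the second. The peaks stood between positions 1074 and 4861 of the 5467 in replicate 2, with a median of 3291, and 4 of the 11 were in the first 50% of the list. The list does not state that it is sorted by strength, and its score column is constant, so position is only a stand-in.

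**Figure D4:**
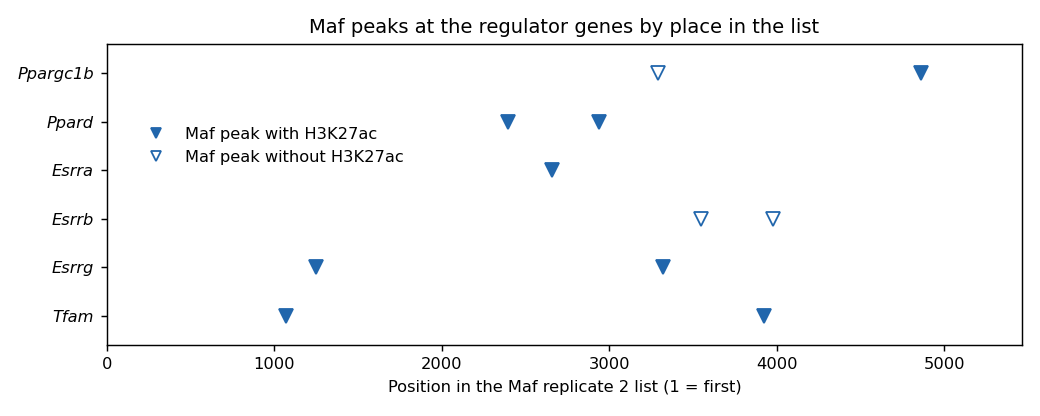
Position of the 11 Maf peaks in the replicate 2 list (1 is the first of 5467), with filled triangles for peaks in H3K27ac and open ones for peaks outside it. The highest are those of Tfam at 1074 and Esrrg at 1250, and the lowest is at Ppargc1b at 4861.

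Motifs were counted as letter matches on both strands. TGCTGAC was found in 2 of the 11 peaks (Ppargc1b and Ppard), against 22.7% of 5485 Maf peaks searched, and TGCTGA in 6, against 50.8%. TGANTCA, which can overlap the Maf element, was found in 3, against 14.9%. CAGCTG, an E-box bound by myogenic factors, was in 4, against 24.2%, and the Mef2 motif in 2 (Esrrb and Esrrg), against 7.68%. No peak held the ERR site TNAAGGTCA, the PPAR repeat, the NRF1 or GABP sites or the CREB site TGACGTCA, which were in 1.8%, 0.0729%, 0.419%, 0.912% and 0.656% of all peaks. With 11 peaks these counts are a description, and they were not tested.

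RefSeq promoters were found for 9 of the 10 genes, in 14 windows. TGCTGA was in 3 of them (Ppargc1a, Perm1 and Tfam), against 19.5% of 32851 promoters, and TGCTGAC in none, against 4.67%. The NRF1 site was in 1 promoter of Ppara, against 1.75%, and the GABP site in that of Tfam, against 3.89%. CAGCTG was in 3 (Ppard, Esrra and Esrrb), against 16.3%, and the Mef2 motif in 2 (Esrrg and Nrf1), against 3.19%. TGANTCA was in 1 of Esrrg, against 7.81%. The ERR, PPAR and CREB sites were in none of the 14, and in 1.28%, 0.0396% and 1.79% of all promoters. A match gives the letters only, and a missing one says only that these letters are not in the window.

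Other genes of the pathway were read from 3 lists. Of 20 partners, such as the retinoid X receptors, corepressors and energy sensors, 12 had a Maf peak in the window, against 31.2% of all genes, and 20 had promoter H3K27ac, against 58.7%. As for the regulators, longer windows can hold more peaks. The highest in the list were at Rxra (position 355), Prkaa2, a catalytic subunit of AMP-activated kinase (475), Nr4a1, an orphan nuclear receptor (626, with 9 Maf peaks in its window), and Rxrg (1032). Gabpb1, a subunit of GABP, was the only partner with a promoter peak, at position 1499 and 169 bp from the start.

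Of 10 genes of the mitochondrial DNA machinery, 8 had a Maf peak in the window, against 31.2% of all genes, and 9 had promoter H3K27ac, against 58.7%. The exception was Mterf1a, which is named after its value was seen. Here too, longer windows can hold more Maf peaks. Promoter peaks were found in 3 of the 10, against 4.93% of all genes, at Ssbp1 (position 964), which binds single-stranded mitochondrial DNA, and at Tfb1m (2168) and Tfb2m (3690), which encode a ribosomal RNA methyltransferase and a mitochondrial transcription factor. The peaks at Polg2 (417) and Twnk (689), a polymerase subunit and the mitochondrial helicase, lay closer to Ddx5 and Pdzd7. Tfam had no promoter peak, unlike its partner Tfb2m.

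Of 30 targets of the pathway, 20 had a Maf peak in the window, against 31.2% of all genes, and all 30 had promoter H3K27ac, against 58.7%. Neighbors can share a peak, so the 20 genes do not stand for 20 peaks. For most of these 20 genes the peak that stood highest lay closer to a start of another gene. Longer windows can also hold more peaks. The highest was at Vegfa, the angiogenic factor, at position 144 and 2462 bp from its start. A peak at position 177 was shared by the windows of Ucp3 and Ucp2, mitochondrial carriers, and was nearest to Ucp3. That at Cox6a2, a muscle subunit of cytochrome oxidase (209), lay closer to Armc5. Hadha and Hadhb, which encode both subunits of the trifunctional protein of fatty acid oxidation and are named after their values were seen, also shared a peak, at position 4317. Plin5, a lipid droplet protein gene, had the single promoter peak of the list, at position 4065. Median H3K27ac cover of the joined window was 17.2% for the 10 regulators, 18.3% for the targets, 8.96% for the partners and 8.32% for the mitochondrial DNA machinery, against 5.32% over all genes.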

How the data were processed

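Maf and H3K27ac ChIP-seq peaks of each sample were used as deposited, in 4 BED lists on GRCm38. The authors sheared chromatin of purified nuclei and, per the labels, made libraries with the NEBNext Ultra II kit. The submitters' processing notes name bcl2fastq 2.17, FastQC, Bowtie2 2.3.2, Picard 2.10.3 and HOMER. The paper's methods name another Bowtie2 version and also STAR, and which of these made the peaks is not clear. The paper gives a false discovery rate for the Maf peaks. Other settings of the peak caller and its use of the input are not given in the sources used here. The score column deposited by the authors holds 1 for every peak, so list position stood in for strength.

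From the lists on, replicates of a target were joined where intervals overlapped or touched, and 1 shared base counted as overlap. Windows were the gene body and 50 kb around 54355 protein-coding transcript starts (GENCODE release M21), and promoters 1 kb to either side. Motifs were searched in 281 bp around the centre of all Maf peaks and in RefSeq promoters. The 10 genes, the pathway lists and the motifs were chosen with earlier results of these data known, and no test was made. The tissue markers were added after the lists had been read. All 10 genes are named, and in each pathway list up to 4 genes with the highest Maf peak and those with a promoter peak. Mterf1a, Hadha and Hadhb were named after their values were seen. Alternatives left out a replicate, kept the first 50% of the Maf lists, changed windows, promoters and starts, and matched replicate numbers. The joining and window steps were tested on simulated intervals. Python 3.11.15 with numpy 2.4.6, pandas 2.3.3, pysam 0.24.0 and matplotlib 3.10.9 was used. The 2 input samples were not used here.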

Additional observations from a re-analysis of the deposited data

How the results depend on the processing

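All Maf results rest on replicate 2. Leaving out a Maf replicate gave 0 to 6 genes with a Maf peak, 0 to 1 with a promoter peak, 0 to 11 peaks and 0 to 8 with H3K27ac, and 131 to 6800 of all genes, the low values being those without Maf replicate 2. In the first 50% of each Maf list there were 4 genes with a peak, 4 peaks, 4 of them with H3K27ac, 0 promoter peaks, and 4193 of all 21829 genes. In the gene or within 10 kb of its starts, 4 of the 10 genes had a peak, with 8 peaks, 5 of them marked, against 3473 of all 21829 genes. By the nearest start, 6 of the 10 genes had a peak, with 9 peaks, against 3824 of all genes. These were not the same 6 genes. Esrra lost its peak to Prdx5, and Ppara gained the one 51979 bp upstream of it. Apart from the nearest start, which assigns peaks differently, these changes follow from fewer peaks or narrower windows.

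Leaving out an H3K27ac replicate gave 7 to 8 marked Maf peaks, 9 to 10 genes with a marked promoter, 78 to 79 regions, and 12437 to 12511 of all genes with a marked promoter. With replicate numbers as a block, each Maf list set only against the H3K27ac list of its number, 7 Maf peaks were marked. Per the paper's methods, sheared chromatin was divided between the Maf and H3K27ac antibodies. The labels do not say that samples of the same number shared it. The GENCODE basic set, an alternative chosen after seeing the data because it lacks the 5′ start of Ppargc1a, gave 6 genes, 11 peaks, 10 promoters and 86 regions. In all, 55 values stayed within 1.5 times the reported one and 12 did not. With 74 peaks in replicate 1 and unknown depth, a gene without a Maf peak cannot be called unbound.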
